A study of Mus musculus with 24 samples.

Results

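Odf2l, Znhit6, Ddah1, Bcl10 and Syde2 are protein-coding genes that lie close together on the distal arm of mouse chromosome 3, and they were described here in 3 lines of N1E-115 neuroblastoma cells. They were chosen by their signal, as neighbours that were all higher in the TO line, and their probes lie from 145059218 to 145958324 on chromosome 3 (mm8 build, positions as in the array files). They are 5 of the 27597 genes on the array, with 8 probes, of which 7 passed the filter on dim signal, and all 5 genes were among the 16238 tested. Because the higher signal in TO chose them, their differences between TO and the other lines are given as a description with no test.

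TO cells (TO-d and TO-p) carry a fusion in which transcobalamin, the blood carrier of cobalamin (vitamin B12), stands at the N-terminal side of oleosin, a plant oil-body protein that anchors in membranes, and the design text states that this fusion binds cobalamin strongly. OT cells (OT-d and OT-p) carry the fusion with transcobalamin at the C-terminal side and show no detectable binding, and WT cells (WT-d and WT-p) were not transfected. The letter d marks differentiation medium (2.5% serum with 1.25% DMSO) and p marks proliferation medium (10% serum). Each of the 6 groups had 4 samples, 24 in all, on 12 Agilent 2-colour arrays of 3 slides with 2 samples per array. All groups are the same mouse cell line, and the labels used here do not say whether TO and OT are single clones or pools. The design text calls the samples biological replicates, but nothing says that they came from separate cultures, so the p-values describe the spread of these samples and no more.

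N1E-115 is a line of sympathetic-neuron type. Of 18 markers of sympathoadrenal neurons, 16, such as Th and Dbh of catecholamine synthesis, were well above background in all 24 samples, while the neurofilament genes Nefl and Nefm were so in none. Of 9 markers each, 3 of glia (Mbp, S100b, Sox10), 4 of fibroblasts and smooth muscle (Col1a1, Col1a2, Acta2, Tagln) and 2 of blood and endothelium (the globins Hbb-bt and Hba-a1) were also above background in all 24, and Ptprc, Itgam and Cdh5 of the last list in none. Tcn2, the mouse transcobalamin gene, averaged 9.56 ± 0.142 in TO-d, 9.07 ± 0.0434 in OT-d and 8.90 ± 0.159 in WT-d, and 8.97 ± 0.0818 in TO-p, 7.58 ± 0.0671 in OT-p and 7.91 ± 0.226 in WT-p (normalized log2 intensity, SD, n = 4). Whether its probe also reads the transfected transcript was not tested.

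The 5 genes serve separate cell functions. Ddah1 breaks down asymmetric dimethylarginine, a methylated arginine released from proteins that inhibits nitric oxide synthases. Bcl10 is an adaptor that joins CARD-containing scaffold proteins to the protease Malt1 and passes receptor signals on to NF-kB. Syde2 is related to the synapse-defective protein of Caenorhabditis elegans, which acts in presynaptic assembly. Znhit6 helps to assemble box C/D small nucleolar ribonucleoproteins, which guide 2'-O-methylation of ribosomal RNA. Odf2l is a relative of the centriolar appendage protein Odf2 and is found at the centrosome and the base of cilia.

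The promoters of the 5 genes are shown because all 5 genes stood higher in TO. They come from RefSeq on GRCm38.p6, a later build than that of the probe positions, and each runs from 250 bases before to 50 after the start of 1 transcript on the plus strand. They lie at chr3:145118339-145118638 for Odf2l, chr3:145575958-145576257 for Znhit6, chr3:145758442-145758741 for Ddah1, chr3:145924012-145924311 for Bcl10 and chr3:145987620-145987919 for Syde2. Capitals mark the CCAAT box and the GC box GGGCGG on either strand.
Odf2l: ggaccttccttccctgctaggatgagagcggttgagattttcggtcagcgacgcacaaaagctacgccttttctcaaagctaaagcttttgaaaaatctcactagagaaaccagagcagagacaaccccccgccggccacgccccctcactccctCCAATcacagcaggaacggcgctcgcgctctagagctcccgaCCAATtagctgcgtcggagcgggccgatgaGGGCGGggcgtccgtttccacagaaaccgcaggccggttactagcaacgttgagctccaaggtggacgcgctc
Znhit6: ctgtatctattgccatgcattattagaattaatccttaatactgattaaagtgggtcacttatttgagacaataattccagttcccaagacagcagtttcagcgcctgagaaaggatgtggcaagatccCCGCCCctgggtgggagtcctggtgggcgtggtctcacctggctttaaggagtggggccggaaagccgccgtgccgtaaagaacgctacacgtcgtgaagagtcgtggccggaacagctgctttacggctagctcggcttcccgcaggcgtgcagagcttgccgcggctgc
Ddah1: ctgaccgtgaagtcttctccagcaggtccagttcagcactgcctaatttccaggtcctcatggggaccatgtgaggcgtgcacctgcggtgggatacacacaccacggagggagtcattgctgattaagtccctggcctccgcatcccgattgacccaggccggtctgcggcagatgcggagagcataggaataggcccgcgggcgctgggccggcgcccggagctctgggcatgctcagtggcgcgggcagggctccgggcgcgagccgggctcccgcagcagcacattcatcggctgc
Bcl10: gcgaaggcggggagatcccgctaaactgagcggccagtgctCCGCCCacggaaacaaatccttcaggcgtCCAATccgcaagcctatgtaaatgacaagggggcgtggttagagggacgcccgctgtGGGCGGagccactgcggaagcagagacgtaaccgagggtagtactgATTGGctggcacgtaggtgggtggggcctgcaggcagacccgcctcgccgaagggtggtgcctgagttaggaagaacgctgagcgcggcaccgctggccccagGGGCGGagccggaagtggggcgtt
Syde2: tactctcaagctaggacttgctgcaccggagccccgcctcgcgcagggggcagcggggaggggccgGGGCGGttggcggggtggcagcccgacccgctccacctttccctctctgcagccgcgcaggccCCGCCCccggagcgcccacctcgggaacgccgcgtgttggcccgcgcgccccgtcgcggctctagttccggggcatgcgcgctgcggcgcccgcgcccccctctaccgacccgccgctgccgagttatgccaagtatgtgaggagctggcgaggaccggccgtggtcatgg

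No searched motif was found in all 5 promoters. GGGCGG was in 4 of 5 (none in Ddah1) and in 35.7% of the 32851 RefSeq mouse promoters of the same length, and CCAAT was in 2 (Odf2l and Bcl10) and in 37.4% of all. The TATA box TATAAA (13.6% of all promoters), the E-box CACGTG (7.15%), the AP-1 site TGACTCA (5.2%) and the cAMP response element TGACGTCA (1.79%) had no match in the 5 windows. GC content was 58.7% for Odf2l, 54.3% for Znhit6, 65.7% for Ddah1, 65.0% for Bcl10 and 75% for Syde2, against a median of 52.7% over all promoters. The windows held 18 to 39 CpG pairs, against a median of 7.

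All 5 genes stood far above the other lines in TO, by 3.01-fold to 6.43-fold over the 4 comparisons of TO with WT or OT in 1 medium. The median log2 difference of the 5 was 2.37 for TO-p against WT-p, 2.15 for TO-d against WT-d, 2.31 for TO-p against OT-p and 1.90 for TO-d against OT-d, while the median of all tested genes lay between -0.03 and 0.02. Within each medium every TO sample was above every OT and WT sample for each of the 5. This separation within both media held for 3.05% of all tested genes. The percent of genes called in either direction at a limma adjusted p under 0.05 was 34.4% for TO-p against WT-p, 46.6% for TO-d against WT-d, 56.0% for TO-p against OT-p and 39.9% for TO-d against OT-d. In cell populations, more cells with a transcript and more transcript per cell cannot be told apart.

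Ddah1 was read by 1 probe at 145790574 to 145790633 on chromosome 3 (mm8), as are all probe positions below. In differentiation medium its log2 intensities were 12.11, 12.29, 12.24 and 12.32 in TO-d, 10.33, 10.43, 9.98 and 10.20 in OT-d, and 9.77, 9.39, 9.69 and 9.65 in WT-d. In proliferation medium they were 12.60, 13.17, 12.94 and 12.97 in TO-p, 10.43, 10.46, 10.49 and 10.44 in OT-p, and 10.65, 10.61, 10.00 and 10.86 in WT-p. The 2 TO groups were the highest and did not overlap each other or any other group. Samples overlapped among WT-p, OT-p and OT-d, while WT-d was lowest and apart. The fitted differences were log2 2.37 (SE 0.116) for TO-p less WT-p, 2.52 (SE 0.138) for TO-d less WT-d, 2.49 (SE 0.122) for TO-p less OT-p and 1.90 (SE 0.13) for TO-d less OT-d. A further probe, named BC060266 in the files and described there as a Ddah1 cDNA, lies at 145831225 to 145831284 and had differences of 2.41, 2.54, 2.81 and 2.00 in the same order.

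Bcl10 had the brighter of its 2 probes at 145871268 to 145871327. Its log2 intensities were 13.74, 13.85, 13.71 and 13.79 in TO-d, 11.76, 11.80, 11.44 and 11.67 in OT-d, and 11.75, 11.61, 11.63 and 11.62 in WT-d. They were 13.65, 13.97, 13.91 and 13.85 in TO-p, 11.54, 11.47, 11.25 and 11.28 in OT-p, and 11.42, 11.56, 11.28 and 11.56 in WT-p. TO-p and TO-d overlapped and stood above the other 4 groups. Of these, OT-d overlapped WT-d, WT-p and OT-p, and WT-p overlapped OT-p, while WT-d lay above WT-p and OT-p. The fitted differences were 2.33 (SE 0.0704) for TO-p less WT-p, 2.09 (SE 0.0833) for TO-d less WT-d, 2.45 (SE 0.0736) for TO-p less OT-p and 2.09 (SE 0.0784) for TO-d less OT-d. The dimmer probe, at 145862443 to 145862502, gave 2.29, 1.43, 2.16 and 1.59.

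Syde2 had 1 probe, at 145958265 to 145958324. Its log2 intensities were 11.10, 10.92, 10.89 and 11.05 in TO-d, 9.11, 9.06, 9.38 and 9.13 in OT-d, and 9.26, 9.55, 9.55 and 9.39 in WT-d. They were 11.05, 11.02, 11.37 and 11.11 in TO-p, 8.77, 8.83, 8.87 and 8.86 in OT-p, and 8.60, 8.76, 8.67 and 8.67 in WT-p. The TO groups overlapped each other, WT-d overlapped OT-d, and OT-p lay above WT-p with no overlap but by a small step. The difference was larger in proliferation medium, at 2.47 (SE 0.0761) for TO-p less WT-p and 1.61 (SE 0.0899) for TO-d less WT-d. Against OT it was 2.31 (SE 0.0795) for TO-p less OT-p and 1.90 (SE 0.0847) for TO-d less OT-d.

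Znhit6, which the files list under its older name 2410019A14Rik, had its brighter probe at 145515710 to 145515855. Its log2 intensities were 14.41, 14.38, 14.30 and 14.37 in TO-d, 12.25, 12.13, 12.04 and 12 in OT-d, and 11.45, 11.79, 11.74 and 11.83 in WT-d. They were 13.97, 13.89, 14.17 and 14.18 in TO-p, 11.92, 11.89, 11.64 and 11.78 in OT-p, and 11.37, 11.52, 11.35 and 11.38 in WT-p. TO-d was highest and did not overlap TO-p, and OT-d came next, apart from OT-p. OT-p overlapped WT-d, which in turn overlapped WT-p at the low end. The fitted differences were the largest of the 5 against WT, 2.61 (SE 0.0806) for TO-p less WT-p and 2.68 (SE 0.0953) for TO-d less WT-d, and were 2.23 (SE 0.0842) for TO-p less OT-p and 2.35 (SE 0.0897) for TO-d less OT-d. The dimmer probe, at 145519969 to 145520019, gave 2.57, 2.81, 2.14 and 2.53.

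Odf2l was read by a probe at 145090813 to 145090872. Its log2 intensities were 11.18, 11.00, 10.95 and 11.15 in TO-d, 9.81, 9.60, 9.16 and 9.43 in OT-d, and 8.78, 8.78, 9.03 and 9.08 in WT-d. They were 12.29, 12.20, 12.32 and 12.10 in TO-p, 10.24, 10.10, 10.09 and 9.91 in OT-p, and 10.14, 10.00, 10.15 and 10.02 in WT-p. The order was TO-p, TO-d, then OT-p and WT-p with overlapping samples, then OT-d and WT-d, each apart from its neighbours. The fitted differences were 2.10 (SE 0.0915) for TO-p less WT-p, 2.15 (SE 0.108) for TO-d less WT-d, 2.09 (SE 0.0956) for TO-p less OT-p and 1.59 (SE 0.102) for TO-d less OT-d. A second probe of Odf2l, at 145059218 to 145059277, was not well above background in any sample.

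**Figure D1:**
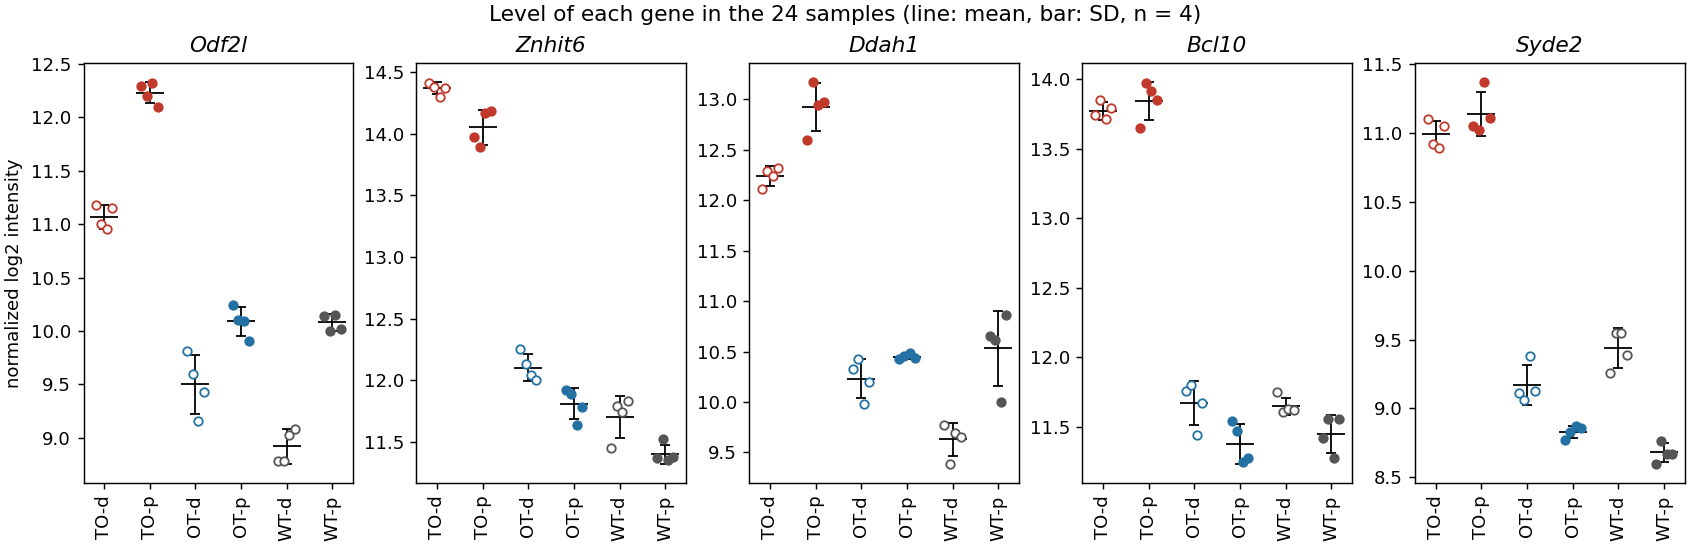
Normalized log2 intensity of each of the 5 genes in the 24 samples, 1 panel per gene with its own vertical axis, with open circles for differentiation and filled circles for proliferation medium and the mean with its SD (n = 4). For each gene the 8 TO samples sit above the 16 OT and WT samples.

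Among the tested genes around the run, Odf2l is the first along the chromosome with a log2 difference of 1 or more in all 4 TO comparisons, and Mcoln2 is the last. Just outside the window that defined the members lay Clca1 on the Odf2l side, at -148.8 kb from its probe, and Mcoln3 and Mcoln2 on the Syde2 side. Clca1, a secreted protein of the calcium-activated chloride channel regulator family that the files list as Clca3, was above background in TO samples but in no OT or WT sample, and was at least 1.28-fold to 1.49-fold higher in TO over the 4 comparisons. Clca4b, farther out at -241.4 kb, had differences of 0.30 to 0.38. It was above background in 4 TO-d and 3 TO-p samples and in 1 OT-d sample. Beyond it, Sh3glb1 had -0.23 to 0.41. Mcoln3 and Mcoln2, which encode endolysosomal cation channels, had differences of 1.15 to 1.76 and of 1.57 to 1.79. A second probe of Mcoln3 had less, 0.26 to 0.60, but was above background in 0 OT-d, 1 WT-p and 0 WT-d samples. The next tested gene, Ssx2ip, a centriolar satellite component, had -0.07 to 0.54.

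Between Odf2l and Syde2, 2 further named genes were also higher in TO. The probe of 2410004B18Rik at 145881310 to 145881369 had 2.03 for TO-p less WT-p, 2.17 for TO-d less WT-d, 1.62 for TO-p less OT-p and 2.10 for TO-d less OT-d. Col24a1, a fibrillar collagen gene, had 2.39, 2.26, 2.47 and 0.99 in the same order at the probe 398.1 kb past that of Odf2l. Its levels were 9.34 ± 0.169 in TO-d, 8.31 ± 0.322 in OT-d and 7.07 ± 0.129 in WT-d, so OT-d also stood above WT-d (log2 1.27, limma adjusted p = 3.33e-09). Its other probe, at 145252634 to 145252693, did not pass the filter on dim signal.

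Ccn1 sits inside the run, at 145584609 to 145584668, and did not share the height. Ccn1, a secreted matricellular protein induced by serum, had log2 intensities of 6.79, 6.73, 6.49 and 6.55 in TO-d, 6.56, 6.60, 6.65 and 6.55 in OT-d, and 6.66, 6.73, 6.68 and 6.53 in WT-d. In proliferation medium it had 6.68, 6.58, 6.86 and 6.72 in TO-p, 6.61, 6.55, 6.54 and 6.54 in OT-p, and 6.71, 6.39, 6.77 and 6.61 in WT-p. The 6 groups were near the lowest level that counts as above background, which was 5.44 to 6.36 over the samples, and the differences of TO were 0.04 to 0.11.

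**Figure D2:**
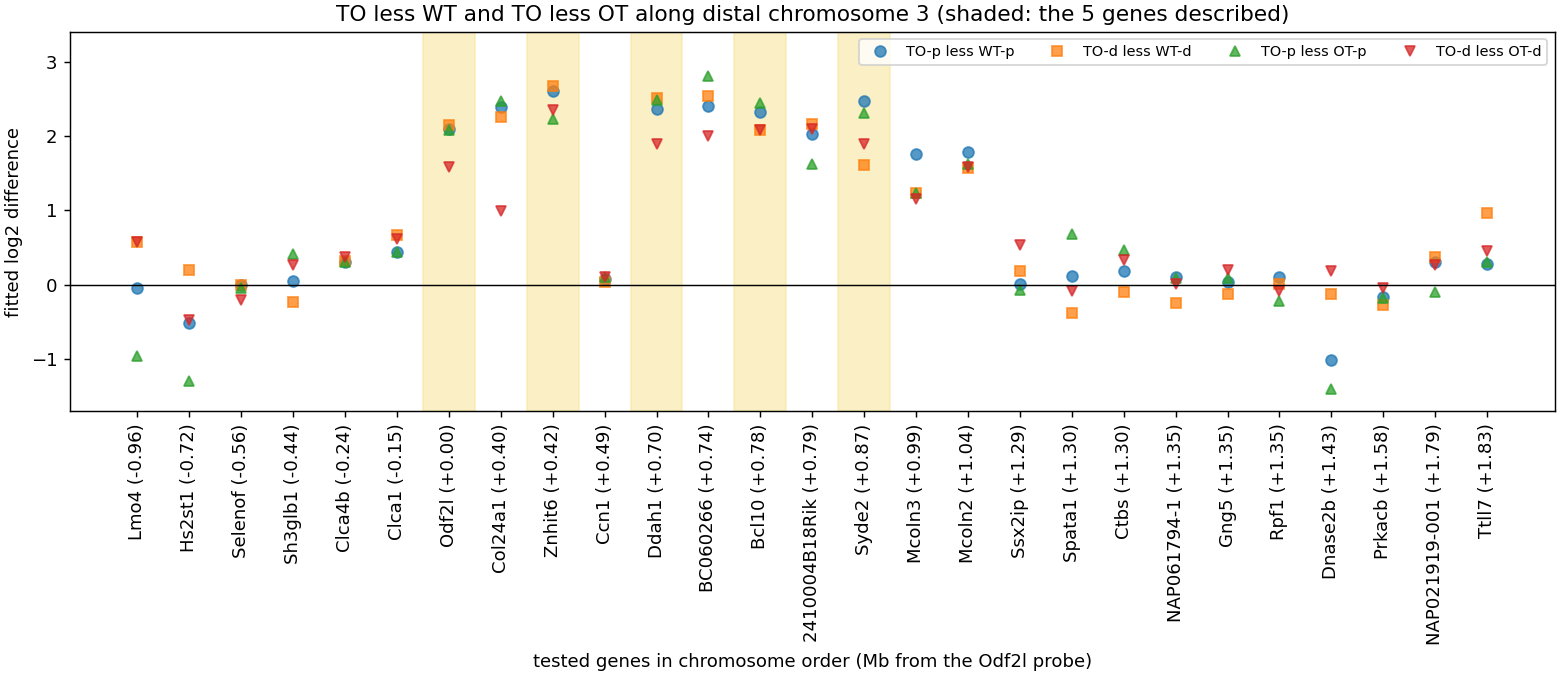
Fitted log2 difference of TO less WT and TO less OT in each medium (4 marker shapes) for the tested genes in and around the run in chromosome order, with the distance of each probe from the Odf2l probe in Mb in brackets and the 5 genes shaded. For the probes drawn from Odf2l to Mcoln2 the differences lie between 0.99 and 2.81 except for Ccn1 at 0.04 to 0.11.

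The wider neighbourhood held genes called in both directions. Of 36 other genes tested between 140 and 150 Mb, BC060266 counted among them, 32 lie outside the window of the members. Of these 32, TO-p against WT-p called 6 higher and 4 lower, TO-d against WT-d 11 and 3, TO-p against OT-p 10 and 11, and TO-d against OT-d 12 and 6 (limma adjusted p under 0.05). In differentiation medium more of the 32 were called higher than lower in TO against both other lines. This count is not independent of the run or of the filter. The 32 include Mcoln3 and Mcoln2 at the edge of the run. They also include Clca1 and Clca4b, which passed the filter on dim signal through TO groups alone, so their calls are tied to that filter. Over all tested genes the shares called higher and lower were 18.8% and 15.6% for TO-p against WT-p, 23.0% and 23.6% for TO-d against WT-d, 29.8% and 26.2% for TO-p against OT-p, and 19.0% and 20.9% for TO-d against OT-d. Dnase2b, an acid nuclease gene 1428.8 kb past Odf2l, had -1.02 for TO-p less WT-p and -1.40 for TO-p less OT-p, with -0.12 for TO-d less WT-d and 0.19 for TO-d less OT-d.

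Over the whole array, 29 genes (0.179% of those tested) had a log2 difference of 1 or more in all 4 TO comparisons, and the rule used these contrasts. Of the 29, 17 are on chromosome 3, where 749 genes were tested (2.27%), with the BC060266 probe of the Ddah1 cDNA counted apart from Ddah1. Chromosome 8 was next with 3 of 849 (0.353%). Besides the run, the 17 include Mrps28 near the proximal end, Prkci and Skil around 31 Mb, Dennd2d, and the neighbours Dpyd and Ptbp2. Dpyd, which starts pyrimidine breakdown, had at least 3.05 in each of the 4 comparisons, and Znhit6 came next with at least 2.23.

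**Figure D3:**
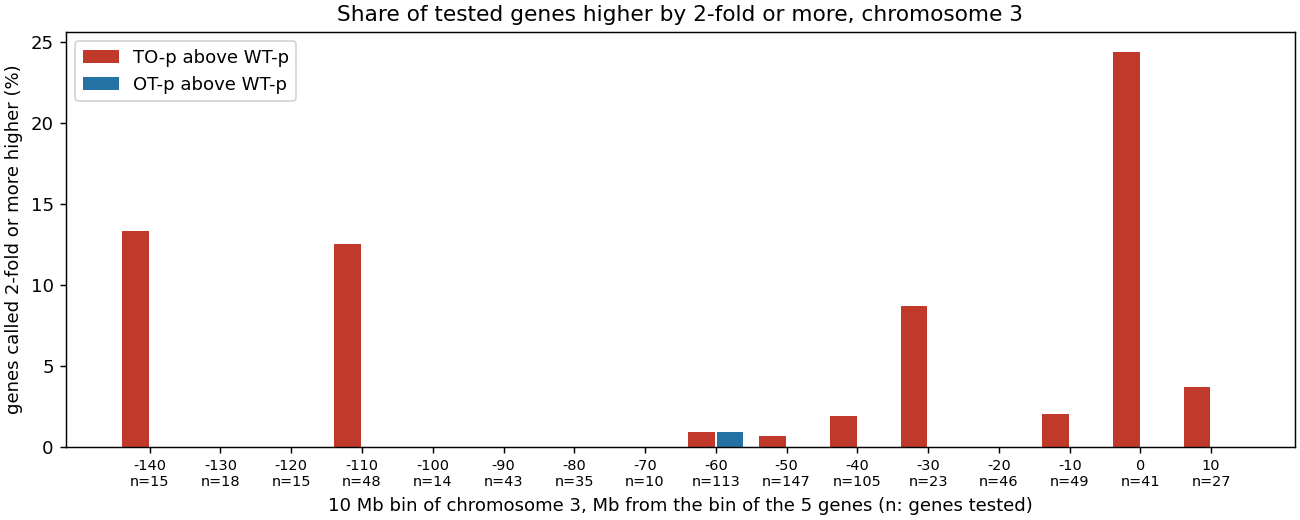
Percent of tested genes called at least 2-fold higher in TO-p (red) and in OT-p (blue) than in WT-p, in 10 Mb bins of chromosome 3 given by their distance in Mb from the bin of the 5 genes, with the number of genes tested under each. The bin of the 5 genes holds 10 such genes of 41 (24.4%) in TO-p and 0 in OT-p. The 10 include the 5 and, counted apart, the BC060266 probe of the Ddah1 cDNA.

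The genes whose profile over the 24 samples was most like the mean of the 5 were sought by the root mean square difference of log2 levels, each gene centred on its own mean. The median over the 16238 tested genes was 1.113. Prkci, an atypical protein kinase C of cell polarity, came closest among genes outside the 5 at 0.222, followed by Ptpn18, a tyrosine phosphatase, at 0.312, Skil, a repressor of TGF-beta signalling, at 0.325, 2410004B18Rik at 0.328 and Mcoln2 at 0.334. C1ra, Mrps28, BC060266, Ptbp2 and Cntnap2 completed the first 10 of these at 0.400 to 0.484. The 5 genes themselves, which are part of the mean, were at 0.186 (Bcl10) to 0.441 (Odf2l). Of these 10, 7 are on chromosome 3, which holds 749 of the 16238 tested genes. They include 2410004B18Rik, Mcoln2 and the BC060266 probe of the Ddah1 cDNA, which lie in or beside the run. The mean profile carries the TO height that chose the 5 genes, so this likeness is a description and no test. Within the run, Bcl10 and Syde2 (0.26) and Znhit6 and Bcl10 (0.261) were the closest pairs, and Odf2l and Syde2 (0.72) the farthest apart.

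OT and WT differed little at these genes in proliferation medium. Only Znhit6 was called, with OT-p above WT-p by log2 0.37 (95% interval 0.21 to 0.53, limma adjusted p = 0.000395), where 44.3% of all tested genes were called, 20.6% higher and 23.8% lower. The other 4 had differences of -0.12 to 0.16. For Syde2 the interval was 0.01 to 0.31 (adjusted p = 0.071), and for Odf2l, Ddah1 and Bcl10 the intervals lay between -0.35 and 0.19. The BC060266 probe of the Ddah1 cDNA was lower in OT-p (-0.39, adjusted p = 4.46e-05). Without WT-p replicate 2 Syde2 was also called (0.22), and without WT-p replicate 3 Ddah1 was (-0.24).

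In differentiation medium 4 of the 5 were called between OT-d and WT-d, against 51.8% of all tested genes (26.6% higher and 25.2% lower). Ddah1 was 1.54-fold higher in OT-d (log2 0.62, adjusted p = 0.00021) and Odf2l 1.47-fold higher (0.56, adjusted p = 4.33e-05). Znhit6 was 1.26-fold higher (0.34, adjusted p = 0.00204), while Syde2 was 1.22-fold lower in OT-d (-0.28, adjusted p = 0.00498). The difference of Bcl10 was 0.00, with an interval of -0.15 to 0.15. These steps were small beside the 1.59 to 2.68 by which the 5 genes differed between TO-d and the other lines. The markers of sympathoadrenal neurons moved in the same comparison, with 10 of 16 called higher in OT-d and 0 lower, and their part in these differences was not tested.

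The medium changed the 5 genes in opposite ways, and the rule did not use this contrast. Odf2l was lower in differentiation medium in all 3 lines and Ddah1 in TO and WT, Znhit6 was higher in all 3 lines, and Syde2 was higher in OT and WT. In TO 3 of the 5 were called between TO-d and TO-p, 1 higher and 2 lower (52.2% of all tested genes, 26.4% higher and 25.8% lower). In OT 4 were called, 3 higher and 1 lower (67.4%, 36.3% and 31.0%), and in WT 4, 2 higher and 2 lower (66.5%, 35.8% and 30.7%). Over the other ways of processing the number called was 2 to 4 in TO, 2 to 4 in OT and 3 to 5 in WT.

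Odf2l fell by 1.07 on the log2 scale in TO-d (SE 0.0961, limma adjusted p = 2.67e-09), by 0.57 in OT-d (SE 0.0915, adjusted p = 7.05e-06) and by 1.12 in WT-d (SE 0.102, adjusted p = 1.82e-09), each against the same line in proliferation medium. Ddah1 fell by 0.78 in TO-d (SE 0.122, adjusted p = 1.07e-05) and by 0.93 in WT-d (SE 0.13, adjusted p = 1.33e-06). In OT-d the change of Ddah1 was -0.19 (interval -0.43 to 0.05, adjusted p = 0.154). The BC060266 probe had -1.12 in TO-d, -0.32 in OT-d and -1.26 in WT-d, all 3 called.

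Znhit6 was higher by 0.37 in TO-d (adjusted p = 0.000801), by 0.25 in OT-d (adjusted p = 0.00775) and by 0.29 in WT-d (adjusted p = 0.00722). Its dimmer probe had 0.45, 0.06 and 0.22, of which only the first was called. Syde2 was higher by 0.75 in WT-d (SE 0.0847, adjusted p = 6.11e-08) and by 0.30 in OT-d (adjusted p = 0.00127), and had -0.11 in TO-d (interval -0.28 to 0.05), which was 0.24 with the marked local backgrounds used as read, also not called. Bcl10 was higher by 0.26 in OT-d (adjusted p = 0.002), with 0.15 in WT-d (interval -0.01 to 0.31) and -0.09 in TO-d (interval -0.24 to 0.06).

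**Figure D4:**
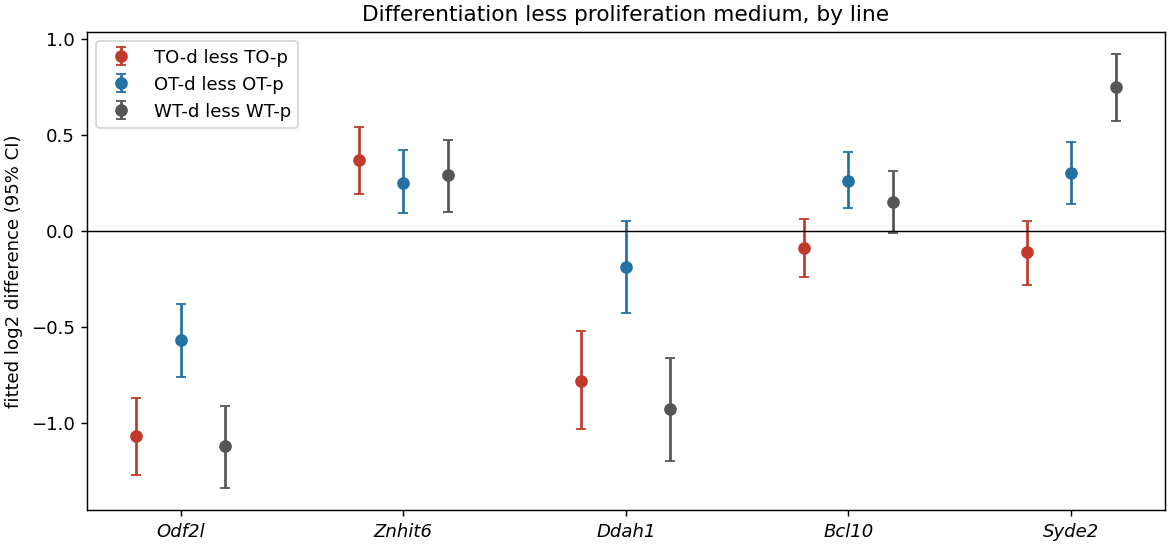
Fitted log2 difference between differentiation and proliferation medium for each of the 5 genes in TO (red), OT (blue) and WT (grey), with 95% confidence intervals from the fit of 24 samples. Syde2 has -0.11 in TO, 0.30 in OT and 0.75 in WT, and Odf2l is below 0 in all 3 lines.

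The responses to the medium were then compared between lines. The response of Syde2 was lower in TO than in WT by 0.86 (interval -1.11 to -0.62, limma adjusted p = 1.31e-05), the only 1 of the 5 called, where 36.4% of all tested genes were called and 18.9% were lower. The dimmer Bcl10 probe was called too (-0.85, adjusted p = 0.00371). The Syde2 difference kept its call without any 1 sample, at -0.91 to -0.82, but with the marked local backgrounds used as read it was -0.55 (adjusted p = 0.236). Against OT, 4 of the 5 had a lower response in TO (40.0% of all genes called), Ddah1 by 0.59 (adjusted p = 0.0105), Odf2l by 0.50 (0.00623), Syde2 by 0.41 (0.00606) and Bcl10 by 0.36 (0.0103). Znhit6 had 0.11 (interval -0.14 to 0.37). Without TO-p replicate 2 Ddah1 was not called (-0.50, adjusted p = 0.0529).

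Between OT and WT, 3 of the 5 responses differed, against 34.8% of all genes (20.3% higher). Those of Ddah1 and Odf2l were higher in OT than in WT by 0.74 (adjusted p = 0.00141) and 0.55 (0.00223), and that of Syde2 was lower by 0.45 (0.00272). None of these 3 was called when the 6 samples with a b in their label number were left out, and of the 4 between TO and OT only Syde2 was. The sympathoadrenal markers again moved with OT, 9 of 16 with a higher response than in WT and 0 lower. Their response in TO less OT was higher for 1 of 16 and lower for 8 (17.2% and 22.7% of all genes). For TO-d against OT-d 2 were higher and 11 lower (19.0% and 20.9% of all genes). The part of these markers in the differences of the 5 genes was not tested.

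Within slides, the differences of TO kept their direction on every slide that held both groups, with 2.07 to 2.80 over the 5 genes for TO-p less WT-p on 3 slides and 1.5 to 2.92 for TO-d less WT-d on 2. The difference of Odf2l was -1.23 to -1.05 for TO-d less TO-p on 3 slides and that of Ddah1 was -0.85 to -0.49. OT-d and WT-d shared 1 slide, where the differences were 0.51 for Odf2l, 0.23 for Znhit6, 0.70 for Ddah1, -0.06 for Bcl10 and -0.30 for Syde2.

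Other genes of the same pathways were read next, by lists chosen with earlier results of these data known and without the 5 genes themselves. The percentages in brackets are shares of a list's tested genes. Over all tested genes the shares higher and lower were 18.8% and 15.6% for TO-p against WT-p, 23.0% and 23.6% for TO-d against WT-d, 29.8% and 26.2% for TO-p against OT-p, and 19.0% and 20.9% for TO-d against OT-d.

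The nitric oxide list around Ddah1 had 17 tested genes, with 7 higher and 4 lower for TO-p against WT-p (41.2% and 23.5%), 6 higher and 2 lower for TO-d against WT-d (35.3% and 11.8%), 7 higher and 6 lower for TO-p against OT-p (41.2% and 35.3%) and 5 higher and 7 lower for TO-d against OT-d (29.4% and 41.2%). Its medians were 0.18, 0.19, 0.06 and -0.10. Nos1, the neuronal nitric oxide synthase, had -0.99 for TO-d less WT-d and -1.23 for TO-d less OT-d on the log2 scale, and Nos3, the endothelial form, had 1.51 for TO-p less OT-p and 0.69 for TO-p less WT-p. Ass1, an enzyme that rebuilds arginine, had -1.43 in TO-d against WT-d. With the medium, while Ddah1 was lower in TO-d and WT-d, Nos1 was higher by 1.65 in TO-d, 2.73 in OT-d and 1.80 in WT-d.

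Of 29 tested genes of the CARD, Bcl10 and Malt1 pathway and of NF-kB there were 11 higher and 5 lower for TO-p against WT-p (37.9% and 17.2%), 5 higher and 11 lower for TO-d against WT-d (17.2% and 37.9%), 13 higher and 8 lower for TO-p against OT-p (44.8% and 27.6%) and 8 higher and 8 lower for TO-d against OT-d (27.6% and 27.6%). The medians were 0.11, -0.11, 0.23 and -0.01. Tab3, an adaptor of the kinase Map3k7, was lower in TO in all 4 comparisons, by 0.72 to 1.39. Casp8, a protease of cell death signalling, had 1.36 for TO-p less OT-p and 0.41 for TO-p less WT-p. Of 23 tested target genes of NF-kB, some of them also in the first list, there were 7 higher and 6 lower for TO-p against WT-p (30.4% and 26.1%), 2 higher and 12 lower for TO-d against WT-d (8.7% and 52.2%), 12 higher and 2 lower for TO-p against OT-p (52.2% and 8.7%) and 7 higher and 3 lower for TO-d against OT-d (30.4% and 13%). Between OT and WT there were 2 higher and 12 lower for OT-p against WT-p (8.7% and 52.2%) and 1 higher and 12 lower for OT-d against WT-d (4.35% and 52.2%), against 20.6% and 23.8% of all genes for OT-p and 26.6% and 25.2% for OT-d. Tnfaip2, induced by tumour necrosis factor, had -1.88 for OT-d less WT-d, -1.50 for OT-p less WT-p and -0.75 for TO-d less WT-d.

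Znhit6 was higher in differentiation medium, where most other genes of small nucleolar ribonucleoproteins were lower. Of 22 tested genes of the list, which holds box C/D and box H/ACA components, there were 2 higher and 16 lower for TO-d against TO-p (9.09% and 72.7%), 2 higher and 20 lower for OT-d against OT-p (9.09% and 90.9%) and 2 higher and 17 lower for WT-d against WT-p (9.09% and 77.3%). Over all tested genes the shares were 26.4% and 25.8% in TO, 36.3% and 31.0% in OT, and 35.8% and 30.7% in WT. The medians of the list were -0.38 in TO, -0.83 in OT and -0.77 in WT, where those of all tested genes were 0.00, 0.04 and 0.06. Nop58, a core box C/D protein, fell by 0.76 in TO-d, by 1.48 in OT-d and by 1.34 in WT-d, and Dkc1, the pseudouridine synthase of box H/ACA, by 0.83, 1.72 and 1.61. The response in TO was higher than in OT for 12 of the 22 and lower for 0 (17.2% and 22.7% of all genes), and higher than in WT for 11 and lower for 3 (17.5% and 18.9%). Between lines there were 5 higher and 9 lower for TO-p against WT-p (22.7% and 40.9%), 12 higher and 4 lower for TO-d against WT-d (54.5% and 18.2%), 4 higher and 14 lower for TO-p against OT-p (18.2% and 63.6%) and 8 higher and 1 lower for TO-d against OT-d (36.4% and 4.55%). Of 14 tested host genes of small nucleolar RNAs there were 6 higher and 1 lower for TO-p against WT-p (42.9% and 7.14%), 2 higher and 6 lower for TO-d against WT-d (14.3% and 42.9%), 7 higher and 3 lower for TO-p against OT-p (50% and 21.4%) and 4 higher and 1 lower for TO-d against OT-d (28.6% and 7.14%). Gas5, one of them, had 0.96 for TO-p less WT-p and 1.85 for TO-p less OT-p.

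Most of the centriole and cilium base list was lower in differentiation medium, as Odf2l was. Of 29 tested genes there were 5 higher and 16 lower for TO-d against TO-p (17.2% and 55.2%), 8 higher and 16 lower for OT-d against OT-p (27.6% and 55.2%) and 7 higher and 18 lower for WT-d against WT-p (24.1% and 62.1%), with medians of -0.33, -0.50 and -0.49. Plk4, the kinase that starts centriole duplication, fell by 1.68 in TO-d, by 2.67 in OT-d and by 2.18 in WT-d. Between lines the list was divided, with 5 higher and 9 lower for TO-p against WT-p (17.2% and 31%), 9 higher and 2 lower for TO-d against WT-d (31% and 6.9%), 9 higher and 12 lower for TO-p against OT-p (31% and 41.4%) and 6 higher and 6 lower for TO-d against OT-d (20.7% and 20.7%). Odf2 itself had 1.23 for TO-p less OT-p and -0.88 for TO-d less WT-d.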

How the data were processed

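RNA of 24 samples was measured on 12 Agilent 2-colour arrays. The deposited scanner tables hold raw intensity for each spot in both dyes. Per the file headers they come from version 10.5.1.1 of the Agilent software, with probe positions on mm8. For each sample the deposited series table gives 1 linear intensity at every spot, and its processing is not given in the sources used here. What follows was computed from the deposited tables, with log2 taken of the deposited intensity. No spot was saturated, well above background stood 54.2 to 65.9% of a sample's spots per the marks in the deposited files, and 0.294% of values marked as outliers were left out. The number of arrays limits the precision.

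Mean signals were background-corrected by normexp (offset 50) in limma 3.58.1 (R 4.3.3, statmod 1.5.0), after 359 local backgrounds marked non-uniform, of up to 525087, were set to the median of their channel. This step was chosen after the data were seen. The 1639 control spots were removed, and loess and Aquantile normalization followed. Spots were averaged to 41174 probes, named through RefSeq where an accession, symbol or synonym matched. A gene was represented by its brightest probe on average, and it had to be well above background in every usable sample of at least 1 group.

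Each dye was fitted as a sample with the array as a block (correlation 0.433), 6 group means and a dye term, with 17 residual and 5.12 prior degrees of freedom. Calls used a two-sided test with Benjamini-Hochberg adjustment over 16238 genes and a threshold of 0.05. Levels are means ± SD, and fitted differences include dye and array. A response compares d less p between 2 lines. "At least" folds took, for each sample of the other group, its own level or the lowest level well above background in that sample, whichever was higher. On simulated data made for TO-d against TO-p over 16238 genes, 69 of 100 genes changed by log2 0.5 and 96 of 100 changed by log2 1 were called. No other genes were changed there, while 52.2% of all tested genes were called in the data, so these shares need not hold for the data.

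The members and all lists were chosen with earlier results of these data known. Named genes are the 5 with every probe, the other genes around the run, at most 4 called genes per list and comparison by size, the 10 nearest profiles, and Tcn2, Col24a1 and Ccn1. The 10 Mb bins of chromosome 3 also allow 3 called genes each. Alternatives were processed signals, the series table, other normalizations, no filter, single probes, no dye term, slide, replicate number, samples left out and 5 Mb bins. The list of genes around Syde2 is not reported here.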

Additional observations from a re-analysis of the deposited data

Results flagged for a closer look

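Of 30 sets of 4 samples (5 genes in 6 groups), 2 had a sample far from the other 3 by Dixon's test, where chance flags about 1 in 20. Znhit6 in WT-p replicate 2 was at 11.52, with the others at 11.35 to 11.38. Bcl10 in WT-d replicate 1 was at 11.75, with the others at 11.61 to 11.63.

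Several responses to differentiation medium differed between lines by the limma test of the difference itself. The TO response less the WT response was -0.86 for Syde2. The TO response less the OT response was -0.50 for Odf2l, -0.59 for Ddah1, -0.36 for Bcl10 and -0.41 for Syde2. The OT response less the WT response was 0.55 for Odf2l, 0.74 for Ddah1 and -0.45 for Syde2.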

How the results depend on the processing

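No difference of the 5 genes that was called, and no TO difference, changed sign under the alternatives that gave it. There were 37 planned settings, the main one included, and 1 added after the data were seen (marked local backgrounds used as read). The median TO difference of the 5 moved by more than the spread of replicates with the processed signals to 2.34 (TO-d against WT-d) and 2.46 (TO-p against OT-p), with loess alone to 2.34 (TO-d against WT-d) and 2.08 (TO-d against OT-d), and with backgrounds as read to 2.07 (TO-p against WT-p) and 2.14 (TO-p against OT-p). Calls were less stable. Between OT-p and WT-p 2 genes were called with the processed signals and with loess alone, and 1 to 2 when a sample was left out (2 without WT-p replicate 2 or 3). Between TO-d and TO-p 2 to 4 were called over the alternatives, 2 with backgrounds as read and without the samples with a b in the label. Between OT-d and OT-p, loess alone and backgrounds as read each left 2. For the response in TO less WT, the processed signals and the series table gave 2, backgrounds as read 0, and leaving out a sample 1 to 2 (2 without TO-p replicate 1). For TO less OT, loess alone, backgrounds as read and leaving out the samples with a b in the label each gave 1. For OT less WT, backgrounds as read and leaving out those samples each gave 0, and in limma with all samples 3 were called. Those samples may repeat an RNA of another sample, and the setting fits 3 samples a group. Where other calls changed the cause was not tested. In 5 Mb bins the percent of genes at least 2-fold higher around the run was 41.7 for TO-p and for TO-d against WT. These are 10 of 24 genes each, among them BC060266 and the 5 genes chosen for their height in TO. Samples of different groups sharing a replicate number deviated together more than others (median correlation 0.11 over 60 pairs, against -0.06 over 180). They did not do so throughout (-0.24 to 0.44 over the 60). Samples with the same number also share a dye, whose effect was not removed before these correlations. The check cannot tell pairing from dye, so the numbers were not taken to pair samples. The replicate block, which also takes up the dye, gave medians of 2.38, 2.14, 2.32 and 1.91 for the 4 TO comparisons and changed no count of called members. Signal near background limits Ccn1, Clca1, Clca4b, Mcoln2 and the second probe of Mcoln3.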
